A study of Schmidtea mediterranea with 152 samples.

Results

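The 150 transcripts described here were read in only part of the planarian tail cells labelled as non-pole, and held many reads in the cells that had them. They were chosen by the following rule. A transcript was called positive in a cell at 20 CPM or more, CPM being its reads scaled by the reads of the cell, and was kept if 10 to 40% of the non-pole cells were positive in both uninjured and regenerating animals. Of 26399 transcripts, 4158 met that condition. The 150 with the largest median CPM over their positive non-pole cells became the members, after leaving out 6 transcripts that the rule names, of which 4 had met the share condition and only dd_10730, at 328 CPM, would have made the list. The share of positive non-pole cells and the level in them were therefore fixed by the choice and are given as description. Which members were read in the same cells, and which were read in posterior pole cells, were not used by the rule.

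The libraries were single-cell Smart-seq2 libraries from the asexual CIW4 strain of *Schmidtea mediterranea*, made from sorted non-dividing cells of posterior tissue. The study screened each library by qRT-PCR for *wnt1* and for *collagen*. It took cells with both as posterior pole cells and cells with *collagen* alone as non-pole muscle cells. The labels of the libraries say pole or non-pole and do not name muscle or *collagen*. The groups were regenerating pole and regenerating non-pole cells, from tail blastemas 72 hours post amputation, and uninjured pole and uninjured non-pole cells, from tail tips of uncut animals. The labels name no animal, plate or sorting day. After 6 pairs of near-identical uninjured non-pole libraries were each counted as 1 cell and 12 libraries with under 50000 reads were left out, 5 regenerating pole, 69 regenerating non-pole, 7 uninjured pole and 53 uninjured non-pole cells remained. The labels give more libraries than the cells the study counted, of pole and of non-pole cells, and the labels do not mark the libraries that the study kept. There were 7 uninjured pole libraries, where the study counted 6 such cells. The non-pole libraries were 75 regenerating and 65 uninjured, in each case more than the study's cells. All labelled libraries that passed the depth minimum are therefore kept under their labels. Their depth ranged from 51801 to 4132918 reads. Each group was taken as 1 sample, because cells of a group share their source, so no test between groups was possible and no p-value is given. Intervals on shares of cells are exact Clopper-Pearson 95% intervals and cover counting error only.

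Planarian muscle cells contract, secrete most of the collagen-containing matrix, and also express the secreted signals and receptors that tell other cells where along the body they lie. Different muscle fibres and different body regions express different subsets of these genes, so a transcript can be strong in some muscle cells and missing from their neighbours. *wnt1*-expressing muscle cells at the midline of the tail tip make up the posterior pole. The study's annotation named 19 of the 150 members (12.7%, against 5.8% of the transcripts that met the share condition and 3.2% of the 19372 transcripts with at least 20 summed reads), either by a planarian gene name or by a match to another species. Names came only from the study's lists of pole transcripts and of *nr4A*-positive muscle transcripts, and from lists of known genes. The posterior pole list was drawn from these same cells. The named share therefore follows list membership, and nothing is read from its excess. The remaining members are known here only by their contig number.

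The named members, whose choice was set by those lists, fell into a few roles. Guidance and adhesion genes were *netR* (dd_11409, a netrin receptor), *NTN1* (dd_8504, a secreted netrin), *slit1* (dd_12111, a secreted repellent), *LRRC4* (dd_8690, a leucine-rich repeat membrane protein), *PTPRF* (dd_12545, a receptor tyrosine phosphatase) and *DCHS1* (dd_11744, a large cadherin). *KAL1* (dd_10075) and *FREM1* (dd_5187) encode matrix proteins, and *DLL1* (dd_13823) encodes a Notch ligand. *AQP4* (dd_1224, a water channel) and *KCNN3* (dd_14006, a potassium channel) are membrane channels. *snail-like* (dd_10216) and *ARID3C* (dd_13474) encode DNA-binding proteins, *SBNO1* (dd_4385) a transcriptional regulator and *ESRP2* (dd_7995) a splicing regulator. *TBC1D30* (dd_6508), *CUL2* (dd_5180) and *DUSP14* (dd_12651) act inside the cell on Rab GTPases, protein ubiquitination and phosphorylation. *agat-1* (dd_920) is a known marker of differentiating epidermal cells in planarians. Lists of known genes entered the members only as far as the share condition let them. None of 13 collagen and 4 FGF receptor-like transcripts met that condition, and only 2 of 14 contractile and 2 of 17 Wnt transcripts did, so that their absence from the members was largely set by the rule. Of 13 guidance transcripts 6 met it and 3 were members, of 14 other matrix transcripts 6 met it and 2 were members, and of 5 Notch transcripts 4 met it and 1 was a member. Of 8 BMP and activin transcripts 3 met it, of 16 neural transcripts 2 and of 12 housekeeping transcripts 6, and none of these was a member. Over all transcripts, 150 of the 4158 that met the condition became members.

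By the measure that chose them, the members had median levels of 260.2 to 9555 CPM in positive non-pole cells, with a middle value of 310.5 CPM. CPM is a share of reads and not corrected for transcript length, so this order is not an order of expression between genes. The 10 highest were dd_68, dd_146, dd_5958, *agat-1*, dd_343, dd_232, dd_327, dd_715, dd_3086 and dd_1943. The cut fell within a continuous range of values. The last members were *SBNO1* at 260.8 CPM, dd_6218 at 260.6 CPM and dd_5403 at 260.2 CPM, and the first transcripts outside were dd_3045 at 260.1 CPM, dd_11975 at 260.0 CPM and dd_4454 at 259.7 CPM. A member was positive in 7 to 27 of the 69 regenerating non-pole cells, with a median of 14, and in 6 to 21 of the 53 uninjured non-pole cells, with a median of 10.

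Every cell held some members. The number of positive members per cell was 29 to 36 in regenerating pole cells (median 34) and 8 to 54 in regenerating non-pole cells (median 32). It was 21 to 33 in uninjured pole cells (median 24) and 13 to 54 in uninjured non-pole cells (median 30). The members together took a median of 1.54% of the reads in regenerating pole cells, against 1.22% in regenerating non-pole cells, and 1.22% in uninjured pole cells, against 1.48% in uninjured non-pole cells. The highest shares were in non-pole cells, at 17.2% for a regenerating and 19% for an uninjured cell, while no pole cell exceeded 2.56%. Over all non-pole cells, 69 regenerating and 53 uninjured, the number of positive members had a Pearson correlation of 0.04 with log10 reads and 0.65 with the number of transcripts read in the cell. Both were computed over the same libraries and are descriptions.

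To find members read in the same cells, each pair was given a co-detection index, the number of non-pole cells positive for both divided by the number positive for either. Among 11175 pairs the median index was 0.11, and 603 pairs shared no cell. An index of 0.5 or more was reached by 186 pairs, or 1.66% of the members' pairs, against 0.00793% of the 8642403 pairs among all 4158 transcripts that met the share condition. That background was not matched on level. Its median level in positive non-pole cells was 101.5 CPM, whereas the lowest member had 260.2 CPM. Nothing is therefore read from the excess. Without the 18 non-pole cells under 5000 CPM of collagens, 0.197% of the members' pairs reached an index of 0.5. Of the 186 pairs, 170 joined members of a single block of 25 transcripts, which held all 12 members over 1000 CPM by the ranking measure. Average linkage with a mean index of at least 0.4 gave 4 sets of 3 or more members, which together held 40 of the 150. They are called here the *agat-1* set (25 members), the *PTPRF* set (7), the dd_11743 set (5) and the *ARID3C* set (3). The other 110 members joined no set, and their best index with any member ranged from 0.19 to 0.54, with a median of 0.32.

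**Figure D1:**
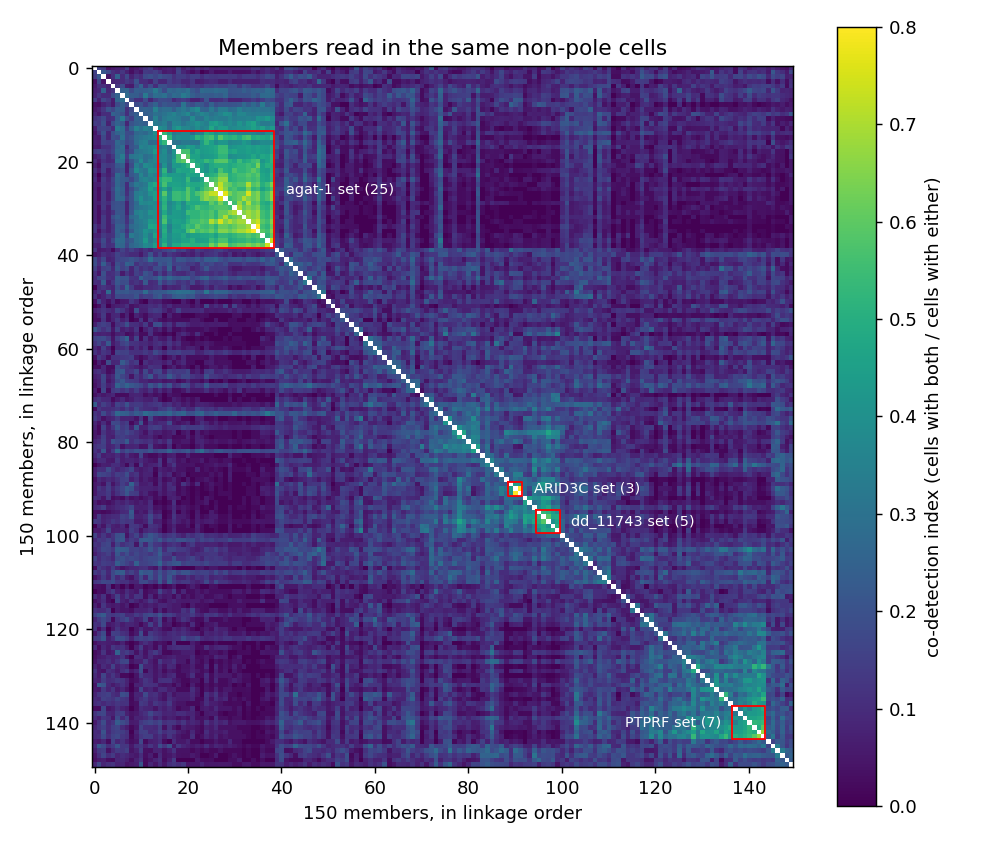
The co-detection index of every pair of the 150 members over all non-pole cells is shown as colour, with members in linkage order on both axes and red squares around the 4 sets. The *agat-1* set of 25 forms the brightest block, and the *PTPRF*, dd_11743 and *ARID3C* sets are smaller blocks with dim surroundings, apart from the neighbouring dd_11743 and *ARID3C* sets.

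The pairs recurred only in part when the conditions were taken separately. In regenerating non-pole cells 237 pairs (2.12% of all) reached 0.5, and in uninjured non-pole cells 256 pairs (2.29%). Pairs that reached it in both conditions were 55.7% of the regenerating and 51.6% of the uninjured pairs, and all but 5 of them lay within the *agat-1* set. The mean index within the *agat-1* set was 0.48 in regenerating and 0.55 in uninjured cells. For the *PTPRF* set it was 0.57 in regenerating and 0.36 in uninjured cells, for the dd_11743 set 0.58 in regenerating and 0.33 in uninjured cells, and for the *ARID3C* set 0.57 in regenerating and 0.51 in uninjured cells.

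The *agat-1* set was read at high level in 11 non-pole cells (9.02% of all, interval 4.59 to 15.6%), 5 of 69 regenerating and 6 of 53 uninjured. All 5 regenerating cells held all 25 members, and the 6 uninjured cells held 22 to 25. The set took 62445 to 182289 CPM in these 11 cells, with a median of 95499 CPM, whereas the median in the other non-pole cells was 91.7 CPM. The 11 cells carried 96.3% of the set's non-pole reads. Their depth, 72784 to 1497055 reads with a median of 338627, overlapped that of the other non-pole cells, 51801 to 3527793 reads with a median of 278828.

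*agat-1* itself illustrates the pattern. The 5 regenerating cells had 6870, 9692, 10143, 10494 and 11241 CPM, and the next regenerating cell had 74.1 CPM. Among uninjured cells the 6 cells of the set had 1561, 2965, 6960, 8528, 10934 and 11573 CPM, and only 2 other cells exceeded 20 CPM. Levels in the regenerating non-pole cells thus fell into a high and a low group with a wide gap between them, while uninjured cells had values in between. *agat-1* had the highest mean index to the rest of its set, 0.60, followed by dd_715 with 0.59. The pairs with the highest index of all included dd_3086 with dd_315 (0.80, 12 shared cells), *agat-1* with dd_1257 (0.76, 13 shared cells), *agat-1* with dd_715 (0.75, 12 shared cells) and dd_343 with dd_11835 (0.74, 14 shared cells). Within shared cells, log2(CPM + 1) of *agat-1* and dd_715 had a Pearson correlation of 0.84, over those 12 cells of mixed depth.

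The cells with the *agat-1* set had low levels of muscle markers, although the study describes its non-pole cells as *collagen*-expressing muscle. The summed level of 13 collagen transcripts was 62.7 to 1305 CPM in the 11 cells, with a median of 364 CPM, against a median of 63335 CPM in the other non-pole cells. The summed level of 14 contractile transcripts was 99.7 to 783 CPM, with a median of 348 CPM, against 35085 CPM in the others. Of the 13 collagens, 6 were positive in none of the 11 cells. Only the *COL2A1* transcript dd_702 was positive in all 11, and its highest value there was 1141 CPM. Of the contractile transcripts, *TAGLN* (dd_635), *ACTN2* (dd_10174) and *FHL1* (dd_5037) had no read in any of the 11 cells, while *mhcA* (dd_432) and *CAPZB* (dd_1165) were each positive in 9. The other epidermal transcript examined, *vim* (dd_950), had 1 read in all kept cells together and none in these. In all, 18 non-pole cells had under 5000 CPM of collagens, 6 of them regenerating and 12 uninjured, and these 18 included the 11. The name muscle is therefore not borne out by the collagen and contractile reads for the cells that hold this set, and the reason was not tested. Their labels say only non-pole and do not show whether the study counted them among its muscle cells.

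**Figure D2:**
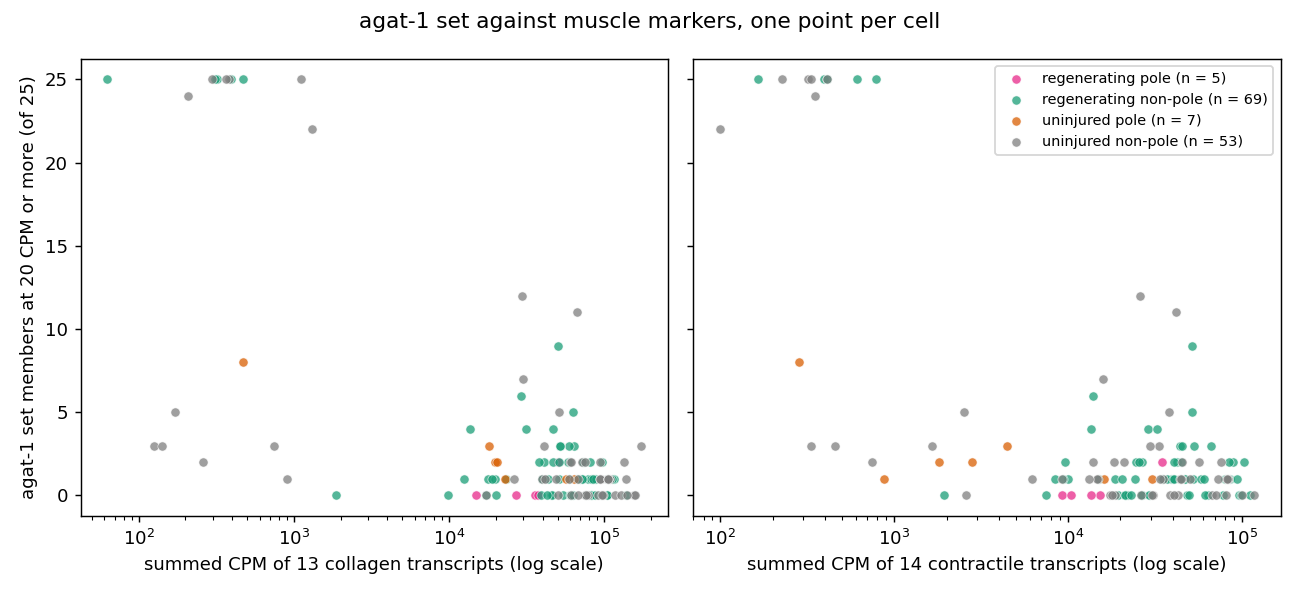
Each point is a cell; the vertical axis counts *agat-1* set members at 20 CPM or more, and the horizontal axes give the summed CPM of 13 collagen (left) and 14 contractile (right) transcripts on log scales. The 11 cells with 22 to 25 members lie at 1305 CPM of collagens or less, the bulk of the cells lie at the right with few members, and 2 uninjured non-pole cells with 11 and 12 members have muscle-level collagens.

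Outside these 11 cells the set was read only in part. The highest counts were 12 and 11 of the 25 members in 2 uninjured non-pole cells with 29676 and 66364 CPM of collagens, and 9 members in a regenerating non-pole cell with 50245 CPM. Each of the 2 uninjured cells was a merged pair of near-identical libraries. In the first pair the separate libraries had 2076 and 1975 CPM of *agat-1*, and in the second pair 1236 and 1225 CPM. Both libraries of each pair thus held *agat-1* and collagens together. As the pairs were merged for their near-identical counts, this agreement was fixed in advance and adds nothing to the merged cell. When all cells under 5000 CPM of collagens were left out, no pair of the set reached an index of 0.5, the mean index within the set was 0.07, and a member of the set was positive in 2 to 18 cells, with a median of 5.

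The *PTPRF* set contained *PTPRF*, *ESRP2* and the unnamed dd_7855, dd_10774, dd_11220, dd_4031 and dd_3513. At least 4 of the set's 7 members were positive in 35 non-pole cells (28.7% of all, interval 20.9 to 37.6%), 22 regenerating and 13 uninjured. The 35 cells had 17306 to 154368 CPM of collagens, so all were above 5000 CPM, and none of them was among the 11 cells of the *agat-1* set. Their median contractile level was 52495 CPM, against 25967 CPM in the other 87 non-pole cells, and the number of set members had a Pearson correlation of 0.57 with contractile CPM over all non-pole cells. The other 87 included all 18 cells under 5000 CPM of collagens, among them the 11 cells of the *agat-1* set, with 99.7 to 783 CPM of contractile transcripts. Neither value was computed over collagen-rich cells alone. The closest pair was *PTPRF* with dd_7855 (index 0.67). *PTPRF* was positive in 23 of 69 regenerating cells, with a median of 410 CPM in them, and in 20 of 53 uninjured cells, with a median of 470 CPM. Several members outside the set were also found mostly in these cells, among them *KCNN3* (18 of its 31 positive non-pole cells), *AQP4* (14 of 21) and dd_24454 (18 of 22).

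The dd_11743 set contained dd_11743, dd_8655, dd_11633, dd_14651 and dd_14783, none of them named. At least 3 of the 5 were positive in 23 non-pole cells (18.9%, interval 12.3 to 26.9%), 14 regenerating and 9 uninjured, and 22 of the 23 had over 5000 CPM of collagens. dd_11743 and dd_14651 had the highest mean indices within the set, 0.52 and 0.49. Named members outside the set were read in these cells to different extents. *snail-like* was positive in 18 non-pole cells, 13 of which held the dd_11743 set and 10 the *ARID3C* set, and *netR* in 27, of which 14 held the dd_11743 set and 12 the *ARID3C* set. *FREM1* and *NTN1* had most of their positive cells outside the dd_11743 set, with 12 of 26 and 11 of 28 within it. None of these 4 was positive in any of the 11 cells of the *agat-1* set.

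The *ARID3C* set held *ARID3C*, dd_8738 and dd_16955. dd_8738 and dd_16955 were positive together in 24 cells, out of 29 and 25 cells for each alone (index 0.80), but their log2(CPM + 1) values in the shared cells had a Pearson correlation of -0.26. At least 2 of the 3 were positive in 26 non-pole cells (21.3%, interval 14.4 to 29.6%), 18 regenerating and 8 uninjured. This set overlapped with the dd_11743 set: 11 cells held both, 12 the dd_11743 set alone and 15 the *ARID3C* set alone, and the mean index between the sets was 0.30.

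The *PTPRF* set and the dd_11743 set were rarely read in the same cell. Of the non-pole cells, 34 held the *PTPRF* set alone, 22 the dd_11743 set alone, 1 held both and 65 held neither, and the mean index between members of the 2 sets was 0.06. *PTPRF* itself was positive in none of the 23 cells with the dd_11743 set and in 32 of the 35 cells with its own set. The *MyoD-like* transcription factor transcript dd_12634, whose planarian *myoD* gene is known for its role in longitudinal muscle fibres, is not a member and was chosen after its values were seen, as was *NKX1-2* (dd_19327). It was positive in 16 of the 23 cells with the dd_11743 set, in 9 of the 26 with the *ARID3C* set, in none of the 35 with the *PTPRF* set and in 21 non-pole cells in all. *NKX1-2*, a homeobox transcript, was positive in 15 non-pole cells, of which none held the *PTPRF* or the dd_11743 set and 6 held the *ARID3C* set. These counts are over cells of shared source and have no test.

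**Figure D3:**
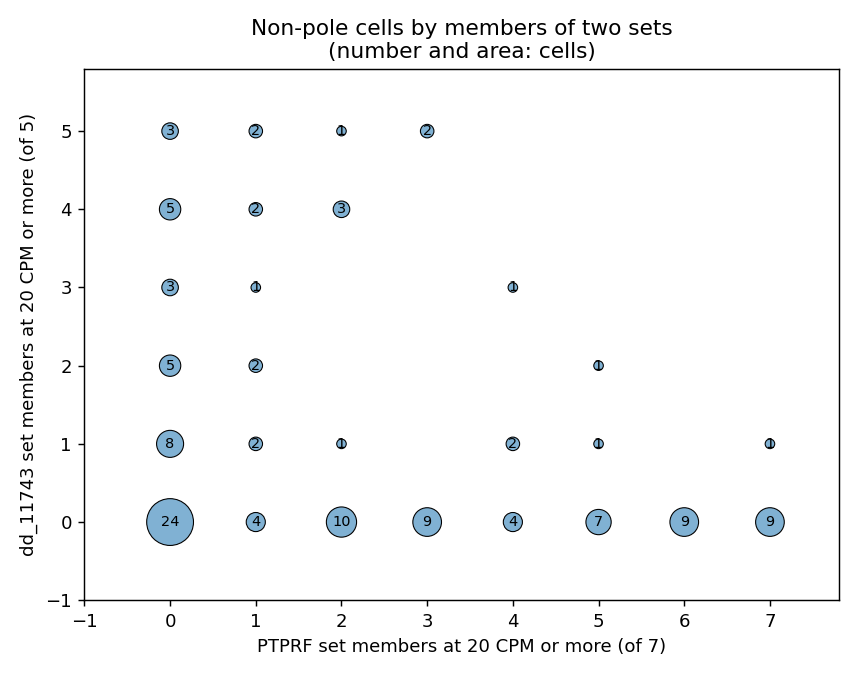
The non-pole cells are placed by how many of the 7 *PTPRF* set members (horizontal) and of the 5 dd_11743 set members (vertical) were at 20 CPM or more; the number in each circle, and its area, give the cells. Of these cells 52 had members of the *PTPRF* set only, 24 of the dd_11743 set only, 24 of neither and 22 at least 1 of each, and 1 cell had at least 4 of the first and at least 3 of the second set.

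The pole cells were not used by the rule. They held a median of 34 positive members per regenerating cell, against 32 in non-pole cells, and 24 per uninjured cell, against 30. As the members were chosen for a limited share of cells, a member can be missed in groups of 5 and 7 cells. In regenerating pole cells 73 of 150 members were positive in at least 1 of 5 cells, or 48.7%, against 67.6% of the 4158 transcripts that met the share condition and 36.5% of all 19372 transcripts. In uninjured pole cells 92 members, or 61.3%, were positive in at least 1 of 7 cells, against 70.4% and 43.4% of those backgrounds. There were 40 members positive in no pole cell (26.7%, against 11.8% of transcripts meeting the share condition and 46% of all 19372), and 26 of the 40 had no read in any of the 12. At the other end, 5 members were positive in at least 9 of the 12 pole cells (3.33%, against 0.361% of transcripts meeting the share condition and 2.8% of all 19372).

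Levels were compared as summed CPM of all cells of a group, on the log2(CPM + 1) scale, and a member was called different at 2-fold. In regenerating cells 26 members were higher (17.3%) and 94 lower (62.7%) in pole than in non-pole cells, where 13.2% and 37.8% of all 19372 transcripts were called higher and lower. In uninjured cells 23 were higher (15.3%, background 18.9%) and 68% of the members were lower (background 48.1%). Both conditions called 12 members higher (8%, background 3.11%) and 79 lower (52.7%, background 19.7%). The median log2 difference of pole over non-pole was -4.45 in regenerating and -3.75 in uninjured cells, against -0.43 and -0.91 for all 19372 transcripts. With transcripts at 0 in a group set to a floor of 3 reads over the group, the members' medians were -4.57 and -3.78. The rule took the transcripts with the highest levels in positive non-pole cells, which are the lower side of this ratio. Calls of lower in pole cells, and a negative median, were thus in part fixed by the choice, neither background was chosen for a high non-pole level, and nothing is read from the excess of lower calls. Since pole groups have 5 and 7 cells and a transcript read in few cells is easily missed in so small a group, the background among transcripts of the same share range is the closer one, though not matched on level. Of those 4158, 20.5% were higher and 44.9% lower in regenerating cells, 21.2% higher and 51.9% lower in uninjured cells, and 5.27% higher and 24.9% lower in both.

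The *agat-1* set was low in pole cells by summed reads. None of its 25 members was higher in pole cells, all 25 were lower in regenerating and 23 in uninjured pole cells. Of the 4158 transcripts that met the share condition, 44.9% and 51.9% were lower. The 25 members were high in the same 11 non-pole cells, a level that the rule selected. The counts of lower members thus repeat 1 contrast and were in part fixed by the choice. Counted per cell, uninjured pole cells were not lower. Their median was 2 positive set members, against 1 in uninjured non-pole cells, and 0 of 7 had none, against 15 of 53. In regenerating cells the medians were 0 in pole and 1 in non-pole cells, and 4 of 5 had none, against 21 of 69. *agat-1* had 0 CPM in each of the 5 regenerating pole cells, against 0 to 11241 CPM (median 0) in regenerating non-pole cells, and 0 CPM in each of the 7 uninjured pole cells, against 0 to 11573 CPM (median 0) in uninjured non-pole cells. Taken over the summed reads it was at least 903-fold lower in regenerating and at least 2260-fold lower in uninjured pole cells, with the floor set at 3 reads over the pole group. The pole and non-pole ranges overlapped at 0, since most non-pole cells lacked it too. The other members with the most negative differences in both conditions were dd_343, dd_5958, dd_327 and dd_146. Finding 0 of 12 pole cells positive has an exact interval up to 26.5%, which is above the 9.02% of non-pole cells that held the set, so a lower share of such cells in the pole groups was not detectable at this number of cells. Without cells under 5000 CPM of collagens, 12 of the 25 members were still lower in both conditions. The share among the 4158 transcripts, with all cells kept, was 24.9%. Without the collagen-poor cells the set summed to 476 CPM over uninjured non-pole cells. Of these, replicates 36 and 57 had 10402 and 11698 CPM of the set, so single cells weighed on the count of 12. The set's median log2 difference was then -1.62 in regenerating and -1.83 in uninjured cells. With all cells it was -6.80 in regenerating and -5.57 in uninjured cells, or -6.85 and -6.70 with the floor of 3 reads.

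A single pole cell departed from the others. The uninjured pole cell labelled replicate 1 was positive for 8 of the 25 *agat-1* set members, which took 17792 CPM of its 84813 reads, although *agat-1* was not read in it. Its collagens stood at 472 CPM and its contractile transcripts at 283 CPM, against 18122 to 63472 CPM and 878 to 30179 CPM in the other 6 uninjured pole cells. The 8 members were dd_232, dd_1122, dd_125, dd_270, dd_1131, dd_674, dd_4660 and dd_246, led by dd_125 with 6379 CPM. Of the other 11 pole cells, none was positive for more than 3 members of the set. The study counted 6 uninjured pole cells, and the labels do not show whether replicate 1 was among them.

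The *PTPRF* set was also low in pole cells. No pole cell was positive for more than 1 of its 7 members. In regenerating animals the set summed to 172 CPM in pole cells, against 1107 CPM in non-pole cells. In uninjured animals it summed to 50.7 CPM in pole cells, against 992 CPM in non-pole cells. With 1 pole cell left out the pole sums were 81.7 to 233 CPM in regenerating and 28.6 to 70.3 CPM in uninjured cells, lowest without regenerating replicate 3 and uninjured replicate 5. *PTPRF* was positive in 0 of 12 pole cells and reached at most 9.62 CPM in a regenerating and 2.31 CPM in an uninjured pole cell. As 28.7% of non-pole cells held this set, the upper limit of 26.5% for 0 of 12 lay just under it, and the intervals overlap. Without the collagen-poor cells 6 of the 7 members were again lower in both conditions, against 24.9% of the 4158 transcripts with all cells kept. These members were read in shared cells, so that count too repeats 1 contrast.

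The dd_11743 set had a higher summed level in regenerating pole cells, but its members went both ways. In each condition 2 of the 5 members were higher and 2 lower in pole cells. The median log2 difference over the 5 was -0.30 in regenerating and -0.14 in uninjured cells. In regenerating animals the set summed to 1829 CPM in pole cells, against 621 CPM in non-pole cells. In uninjured animals it summed to 1616 CPM in pole cells, against 967 CPM in non-pole cells, but 86.2% of the pole reads came from the cell labelled replicate 5. Without that cell the uninjured pole cells summed to 346 CPM, below the non-pole level. Without any 1 of the regenerating pole cells the set stayed above the non-pole level, at 1590 to 2169 CPM. dd_11743 had 1000, 1677, 669.9, 462.4 and 1989 CPM in the 5 regenerating pole cells, against 0 to 3883 CPM (median 0) in regenerating non-pole cells. In uninjured pole cells it had 0 to 2743 CPM with a median of 4.21 CPM, against 0 to 2360 CPM (median 0) in uninjured non-pole cells. All regenerating pole cells were thus positive, against 20 of 69 regenerating non-pole cells, whereas 2 of 7 uninjured pole cells were, and 1 of those carried 98.7% of the group's reads. Its log2 difference was 2.26 in regenerating and 1.76 in uninjured cells, and -3.85 in uninjured cells without that 1 cell, replicate 5. dd_11633 was higher in both conditions as well (log2 difference 2.72 regenerating and 2.78 uninjured), but dd_8655 and dd_14783, read in the same non-pole cells, were positive in 0 of 12 pole cells.

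*netR* and dd_11799 were each positive in 11 of 12 pole cells by the 20 CPM threshold. For both, 1 of these was the collagen-poor uninjured replicate 1, at 23.6 CPM from 2 reads. With at least 3 reads required both were positive in 10 pole cells, the same number as *TBC1D30*. *netR* reached its share at higher summed levels (11 of 12, 91.7%, interval 61.5 to 99.8%). It had 3389.7, 1287, 1251, 1511 and 1564 CPM in the regenerating pole cells, against 0 to 3473 CPM (median 0, 18 of 69 positive) in regenerating non-pole cells. In uninjured pole cells it had 4.62 to 3346 CPM with a median of 1093 CPM, against 0 to 4594 CPM (median 0, 9 of 53 positive) in uninjured non-pole cells. The ranges overlapped in both conditions, but each pole median lay far above 0. The log2 difference was 2.40 in regenerating and 2.64 in uninjured cells. In the uninjured non-pole group 82.4% of its reads came from 1 cell.

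*TBC1D30* was positive in 10 of 12 pole cells (83.3%, interval 51.6 to 97.9%) and differed most when the lesser of both conditions was taken, with log2 differences of 3.20 in regenerating and 4.61 in uninjured cells. In uninjured pole cells 86.7% of its reads came from replicate 5, without which the difference was 2.34. It had 115.4, 1246, 1484, 473.5 and 1031 CPM in regenerating pole cells, against 0 to 4011 CPM (median 0, 10 of 69 positive) in regenerating non-pole cells. In uninjured pole cells it had 0 to 2540 CPM with a median of 186 CPM, against 0 to 1107 CPM (median 0, 11 of 53 positive) in uninjured non-pole cells. Unlike *netR*, which was positive in 0 of the 11 non-pole cells with the *agat-1* set, *TBC1D30* was positive in 10 of those 11 and in 11 of all other non-pole cells, and its mean index to the *agat-1* set was 0.40. No other named member outside the set was read in as many of the 11 cells.

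**Figure D4:**
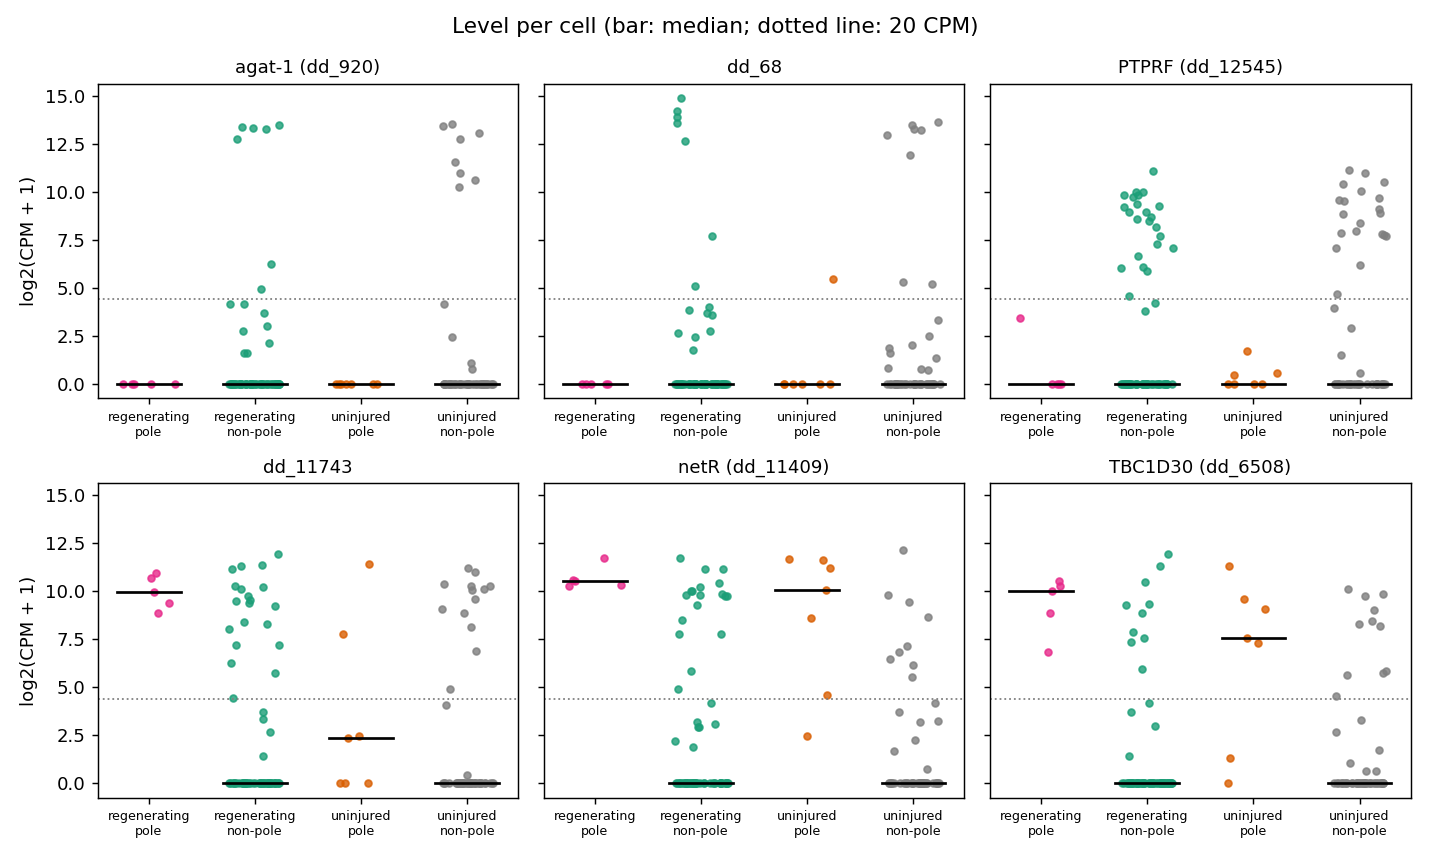
Levels in log2(CPM + 1) of 6 members in every kept cell, by group, with the bar at the median and the dotted line at 20 CPM. *agat-1* and dd_68 are high in a few non-pole cells of both conditions, *PTPRF* stays under 20 CPM in all 12 pole cells, and the medians of *netR* and *TBC1D30* lie above the line in both pole groups and at 0 in both non-pole groups.

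Further named members were read in many pole cells. *DLL1* was positive in 9 of 12 pole cells, 5 of 5 regenerating, against 14 of 69 regenerating non-pole cells, and 4 of 7 uninjured, against 7 of 53 uninjured non-pole cells. It had 1322, 1159, 1980, 1121 and 76.9 CPM in regenerating pole cells, where the log2 difference was 4.09. It was 0.78 in uninjured cells, where 1 non-pole cell carried 93.4% of the non-pole reads, and -1.36 there without pole replicate 5. *LRRC4* was positive in 4 of 5 regenerating and 5 of 7 uninjured pole cells, with log2 differences of 0.95 in regenerating and 3.21 in uninjured cells. *snail-like* was positive in 5 of 5 regenerating pole cells, at 33.7 to 306 CPM, against 11 of 69 regenerating non-pole cells, and in 3 of 7 uninjured pole cells, against 7 of 53 uninjured non-pole cells, with log2 differences of 1.82 in regenerating and 1.55 in uninjured cells. The uninjured *snail-like* difference was -1.16 without pole replicate 6, which held 89.3% of the reads.

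Unnamed members completed this group. dd_11799 was positive in all 7 uninjured pole cells, at 23.6 to 1354 CPM, and in 4 of 5 regenerating ones, and it was positive in 23 of 69 regenerating and 21 of 53 uninjured non-pole cells. dd_19236 was positive in 5 of 5 regenerating pole cells, at 81.5 to 452 CPM, and in 2 of 7 uninjured ones. dd_12679 was positive in 4 of 5 regenerating and 3 of 7 uninjured pole cells, and so was dd_9316. dd_11827 and dd_413, found in 6 pole cells each, had log2 differences of 4.27 and 2.33 in regenerating and 2.62 and 2.80 in uninjured cells. Without replicate 7 the uninjured differences were 0.36 for dd_11827 and 1.33 for dd_413, and without replicate 5 the regenerating difference of dd_413 was 1.58.

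Of the members, 7 (*netR*, *FREM1*, *TBC1D30*, *LRRC4*, *snail-like*, *DLL1* and dd_11827) are on the list of posterior pole transcripts that the study drew from these same cells, or 4.67%, against 1.2% of the transcripts meeting the share condition and 1.02% of all 19372. That list is not independent of the levels given here. On the study's lists of anterior pole transcripts were 6 members (4%, against 0.673% and 0.857% of the same backgrounds), namely *NTN1*, *slit1*, *DCHS1*, *LRRC4*, *ARID3C* and *DLL1*. On its list of transcripts of *nr4A*-positive muscle were 11 members (7.33%, against 6.04% and 2.96%). *FREM1* differed between conditions: it had 5784, 2249, 791.6, 0 and 2579 CPM in regenerating pole cells, against 19 of 69 positive regenerating non-pole cells, while in uninjured cells 2 of 7 pole cells were positive, against 7 of 53 non-pole cells. Its log2 difference was 2.48 in regenerating and -4.78 in uninjured cells, where 73.7% of the non-pole reads came from 1 cell. *NTN1* was positive in 3 of 5 regenerating pole cells, at up to 440 CPM, and was positive in 0 of 7 uninjured ones. *slit1* and *AQP4* had no read in any pole cell, and *ARID3C*, although its set partner dd_16955 was positive in 4 pole cells, had none either.

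Among the remaining named members, *DCHS1* was positive in 2 of 5 regenerating and 3 of 7 uninjured pole cells, with log2 differences of -0.46 and -0.63 that did not reach 2-fold. *SBNO1* was positive in 3 of 5 regenerating and 1 of 7 uninjured pole cells, with log2 differences of 1.05 in regenerating and 0.20 in uninjured cells, or -0.14 without regenerating replicate 4 and -3.72 without uninjured replicate 7. *KCNN3*, *KAL1* and *ESRP2* were each positive in 1 pole cell. *CUL2* and *DUSP14* were positive in 3 and 4 uninjured pole cells and in no regenerating pole cell.

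**Figure D5:**
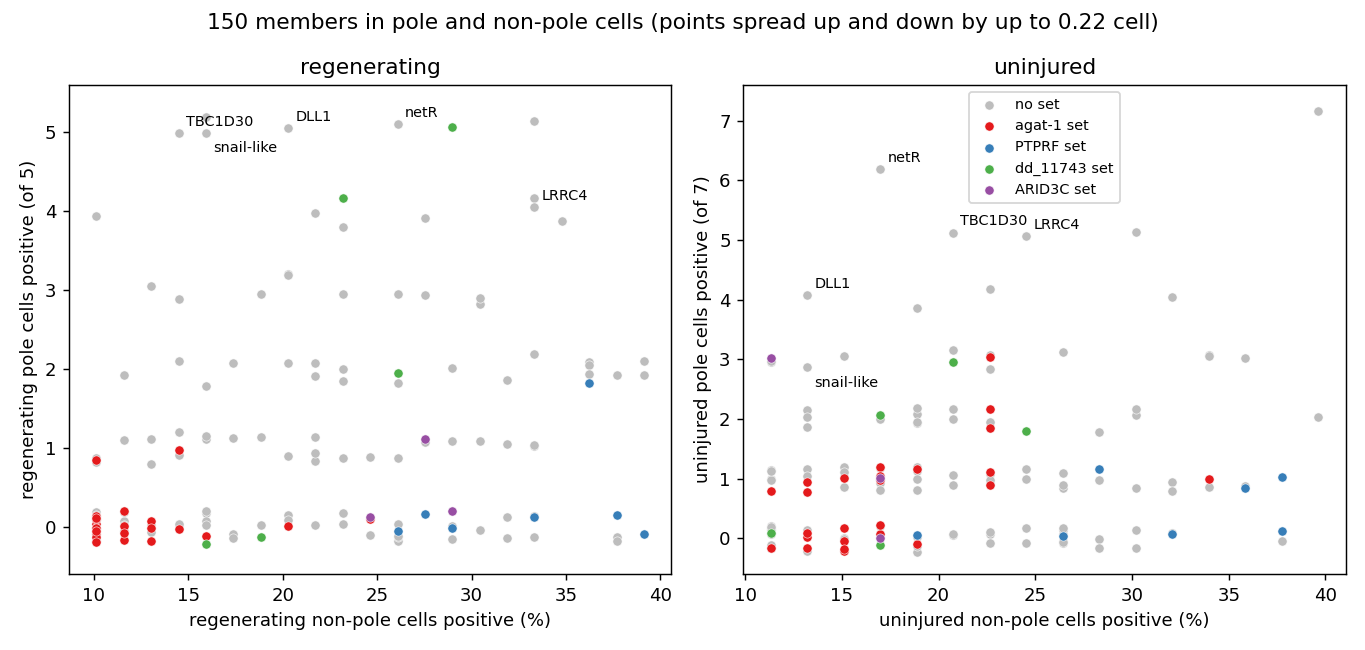
Each point is 1 of the 150 members, placed by the percentage of non-pole cells positive and the number of pole cells positive, in regenerating (left) and uninjured (right) animals, and coloured by set. *netR* is at 5 of 5 and 6 of 7, *TBC1D30* at 5 of 5 and 5 of 7, and the *agat-1* and *PTPRF* sets lie near the bottom in both panels.

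Between conditions the non-pole levels of the members differed both ways, in a balance that depended on the scaling. In regenerating non-pole cells 22 members were higher (14.7%, background 19.9%) and 27 lower (18%, background 29%) than in uninjured non-pole cells by 2-fold, and the median log2 difference was 0.05, against -0.22 over all 19372 transcripts. Of transcripts meeting the share condition, 21.8% were higher and 17.1% lower. The share of positive cells was larger in regenerating cells for 70 members and in uninjured cells for 80, and in the *agat-1* set it was larger in uninjured cells for 24 of 25. The *agat-1* set was read as a block in 6 of 53 uninjured and 5 of 69 regenerating cells. Its 24 members thus largely repeat that 1 small difference. All these shares of positive cells entered the rule and so are bounded by it. The largest differences were dd_315 (log2 3.20), dd_10567 (2.75) and *SBNO1* (2.73), higher in regenerating cells, and dd_28750 (-4.33), dd_1882 (-3.26) and dd_17255 (-2.80), lower in regenerating cells. dd_28750 had 6.87 CPM over the regenerating cells, against 157 CPM over the uninjured cells, and was positive in 7 of 69 regenerating and 16 of 53 uninjured cells, so its levels overlapped at 0. *SBNO1* had 86.4 CPM over the regenerating cells, against 12.2 CPM over the uninjured cells, and was positive in 21 of 69 regenerating and 6 of 53 uninjured cells. Single cells weighed on many of these: for dd_17255, 86.8% of the uninjured reads came from 1 cell, and for 12 of the 27 lower members 1 uninjured cell held over 50% of them. Scaling by TMMwsp factors shifted the regenerating over uninjured difference by -0.70 on the log2 scale and gave 11 higher and 60 lower members, so the balance between higher and lower depended on the scaling. The same scaling shifted pole over non-pole by -0.19 in regenerating and -0.17 in uninjured cells.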

How the data were processed

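Raw read counts per transcript row were deposited by the authors for 152 single-cell Smart-seq2 libraries. CASAVA 1.7.0, Trimmomatic 0.32 and Bowtie are listed as tools by the submitters' processing notes, and contigs are numbered as in dd_Smed_v4. The counting tool and the handling of reads that fit several contigs are not given in the sources used here. No molecular identifiers were used, so PCR copies are counted as reads. The 26560 of 26566 rows listed in the deposited comparison table were used. They held 36.4% of all reads and, with rows of 1 contig number summed, gave 26399 transcripts. That table's own pole against non-pole estimates and Z scores were not used. Among 9730 library pairs, 6 uninjured non-pole pairs differed little (chi-square over its degrees of freedom between 1.28 and 7.41, with 22.2 as the next lowest), and each was merged to 1 cell. Cells needed 50000 reads on the used rows, and CPM was computed on those rows. Co-detection sets came from average linkage. Levels used summed CPM with a pseudocount of 1. The background was the 19372 transcripts with at least 20 summed reads. Alternatives changed the CPM threshold, the depth minimum, thinning, scaling (edgeR 4.0.16 TMMwsp), the share range, the merging of libraries, the index, the fold and the pseudocount, or left out collagen-poor cells or each pole cell. Python 3.11.15 and SciPy 1.17.1 were used, and the scripts were tested on simulated data. The text names the 10 members with the largest median, annotated members, the 2 closest to each set, the 5 highest pairs, the 10 in most pole cells, the 5 largest and 5 smallest pole differences, the 3 on each side of the cut and the 3 largest changes each way between conditions. Other members were chosen after their values were seen. The members and lists were chosen with earlier results of these data known.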

Additional observations from a re-analysis of the deposited data

Results flagged for a closer look

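Within each pole group the number of positive members and the summed CPM of each set were checked for a cell far from the others by Dixon's criterion, and 9 of 20 values stood apart. Chance gives about 1 in 20 for continuous values, a rate that cannot be applied here. Of the 9 values 5 are small counts of members, and in 3 of those the other cells tie, so that any different count stands apart. The uninjured pole cell replicate 1 had 8 *agat-1* set members, against 3 in the next cell, and 17792 CPM of the set, against 1181 CPM. The uninjured pole cell replicate 5 had 3 dd_11743 set members, against 1 in the next cell, and 3924 CPM of the set, against 657 CPM. The regenerating pole cell replicate 2 had 2 *agat-1* set members, against 0 in the next cell, and 85.7 CPM of the set, against 9.62 CPM. The regenerating pole cell replicate 5 had 3 dd_11743 set members, against 2 in the next cell. The regenerating pole cell replicate 4 had 1 *ARID3C* set member, against 0 in the next cell, and 374 CPM of the set, against 3.34 CPM. The 12 libraries left out for depth held 4257 reads of the members, and at most 6 of the 25 *agat-1* set members had a read in any of them.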

How the results depend on the processing

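Over all alternatives 257 values stayed within 1.5 times the reported one, 38 moved further and 4 turned their direction. No paired analysis was possible because the replicate numbers only follow accession order and each group is 1 sample. Of the 150 members, the rule gave 87 again at 50 CPM, 98 after thinning to 50000 reads, 96 with TMMwsp scaling, 96 without cells under 5000 CPM of collagens and 67 with a share range of 15 to 35%, where 2173 transcripts met the share condition. At 10 CPM, 1.23% of the members' pairs had an index of 0.5 or more in regenerating cells and 0.537% in both conditions. After thinning these shares were 1.01% in all non-pole cells, 1.19% in regenerating cells and 0.456% in both conditions. Without collagen-poor cells they were 0.197% in all, 0.501% in regenerating cells, 0.510% in uninjured cells and 0.0537% in both, and 19 members were in a set. In the deeper cells of each condition they were 2.68% in all, 3.66% in regenerating cells, 4.26% in uninjured cells and 1.91% in both, and the shallower cells gave 0.761% in both. A phi coefficient of at least 0.5 was reached by 2.87% in all, 3.44% in regenerating cells, 3.50% in uninjured cells and 2.17% in both. A 4-fold threshold left 15 members higher in regenerating pole cells, 10 in uninjured pole cells and 5 in both, and 7 higher and 14 lower in regenerating than in uninjured non-pole cells. TMMwsp scaling gave 11 higher and 60 lower there. The cause of these shifts was not tested. Leaving out 1 pole cell at a time gave 66 to 73 members positive in a regenerating pole cell, 79 to 92 in an uninjured pole cell and 40 to 47 in none. It gave 23 to 32 higher in regenerating pole cells, 18 to 24 higher in uninjured pole cells, and 10 to 14 higher and 78 to 83 lower in both. The log2 difference of summed levels in uninjured cells was 0.74 for the dd_11743 set, and -1.48 to 1.10 without 1 pole cell, the lowest without replicate 5. For the *ARID3C* set it was -0.04, and -2.75 to 0.59 without 1 pole cell, above 0 without replicates 3 (0.02), 5 (0.59) and 6 (0.44). With 12 pole cells, 0 positive cells has an exact interval up to 26.5%.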
